A study of Mus musculus with 9 samples.

Results

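The genes described here are the Hox genes of mouse together with their Meis, Pbx and Pknox cofactors, compared between embryonic stem cells (ESCs) and embryoid bodies. They were chosen by name: 41 gene symbols were listed, 34 of Hox genes and 7 of cofactors, and a gene was taken up if the annotation of the array paired a probe set with its symbol alone. A probe set is a group of short probes that together read out the transcripts of a gene. Of the 41 genes, 40 had such a probe set, out of 18193 genes measured in this way, and Hoxa6 had none. The 40 genes were 33 Hox genes and 7 cofactors (Meis1, Meis2, Meis3, Pbx2, Pbx3, Pbx4 and Pknox1). Where a gene had several probe sets of its own, the 1 with the highest mean over all arrays was used. For its own models the study kept only plain probe sets, because other types may also bind transcripts of other genes. Here all types were kept, and Meis1, Meis2, Meis3, Pbx3, Hoxa5, Hoxa10, Hoxb6 and Hoxd8 were read by probe sets of the other types.

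The data were 9 Affymetrix mouse genome arrays of total RNA, 4 of E14 ESCs (labelled 2, 6, 8 and 10) and 5 of embryoid bodies made of E14 cells (labelled 1, 3, 5, 7 and 9). E14 is a mouse ES cell line, and embryoid bodies are aggregates in which ESCs differentiate into a mixture of cell types. No treatment of either group and no genotype difference between the groups were given. How long the embryoid bodies had been cultured, whether feeder fibroblasts were present and whether the embryoid body arrays came from separate cultures were not given in the sources used here. The methods of the study call the 4 ESC samples biological replicates and say no such thing of the embryoid bodies, so the p-values measure the spread between these samples, which for the embryoid bodies may be technical. The values are signal intensities processed by GCRMA and are given as log2 throughout, always in the order of the array labels above. The median probe set lay between 4.03 and 4.09 on the ESC arrays and between 4.01 and 4.07 on the embryoid body arrays. As 49.1 to 49.9% of all probe sets of an array were under 4, a value under 4 is called near the floor, where the method separates a gene poorly from background. No value of 1 gene was set against that of another, since probes differ in how strongly they bind. Of 12 pluripotency markers, all but Esrrb passed the test described below as lower in the embryoid bodies (11 genes), against 14.7% of all genes. In all 12, every embryoid body array was below every ESC array, a pattern that was not counted over all genes. The summed intensity of the 12 went from 41424 to 45303 on the ESC arrays down to 3954 to 7692 on the embryoid body arrays. The arrays read bulk RNA, in which fewer cells of a type and less RNA per cell cannot be told apart.

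Hox genes encode homeodomain transcription factors that give cells their position along the head-to-tail axis. In mouse they lie in 4 clusters (HoxA, HoxB, HoxC and HoxD), and within a cluster the genes at the 3′ end, with low paralogue numbers, are switched on first and nearest the head, while those at the 5′ end follow later and farther toward the tail. Meis, Pbx and Pknox proteins are homeodomain proteins of another class, named TALE for a loop of 3 extra amino acids, and bind DNA together with Hox proteins. In undifferentiated ESCs the Hox clusters are known to be silenced by Polycomb proteins.

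Of the 40 genes, 9 were higher in the embryoid bodies (Meis1, Meis2, Meis3, Pbx2, Pbx3, Hoxa9, Hoxb2, Hoxb3 and Hoxd9), 0 were lower, and 31 did not pass the test. The groups were tested with limma on all 45037 probe sets, the p-values were adjusted by the method of Benjamini and Hochberg, and an adjusted p under 0.05 counts as a call. In the same fit 15.7% of all 18193 genes were called higher and 14.7% lower. By limma's unadjusted p under 0.05, 10 of the 40 were higher and 3 lower. The calls fell unevenly, with 5 of the 7 cofactors but 4 of the 33 Hox genes called higher. The share of Hox genes called higher was thus near that over all genes. The cofactors and the Hox genes also differed in level, as 15 Hox genes but 0 cofactors were under 4 on every array. Near the floor a difference is hard to detect, so the 2 shares are not on a like footing. In all 9 called genes every embryoid body array was above every ESC array, a pattern that 15.6% of all genes showed. With the further condition of a difference of at least 1 on the log2 scale, 6 of the 40 were called higher (Meis1, Meis2, Pbx2, Pbx3, Hoxa9 and Hoxb2), and 0 lower, against 5.88% and 3.63% of all genes.

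**Figure D1:**
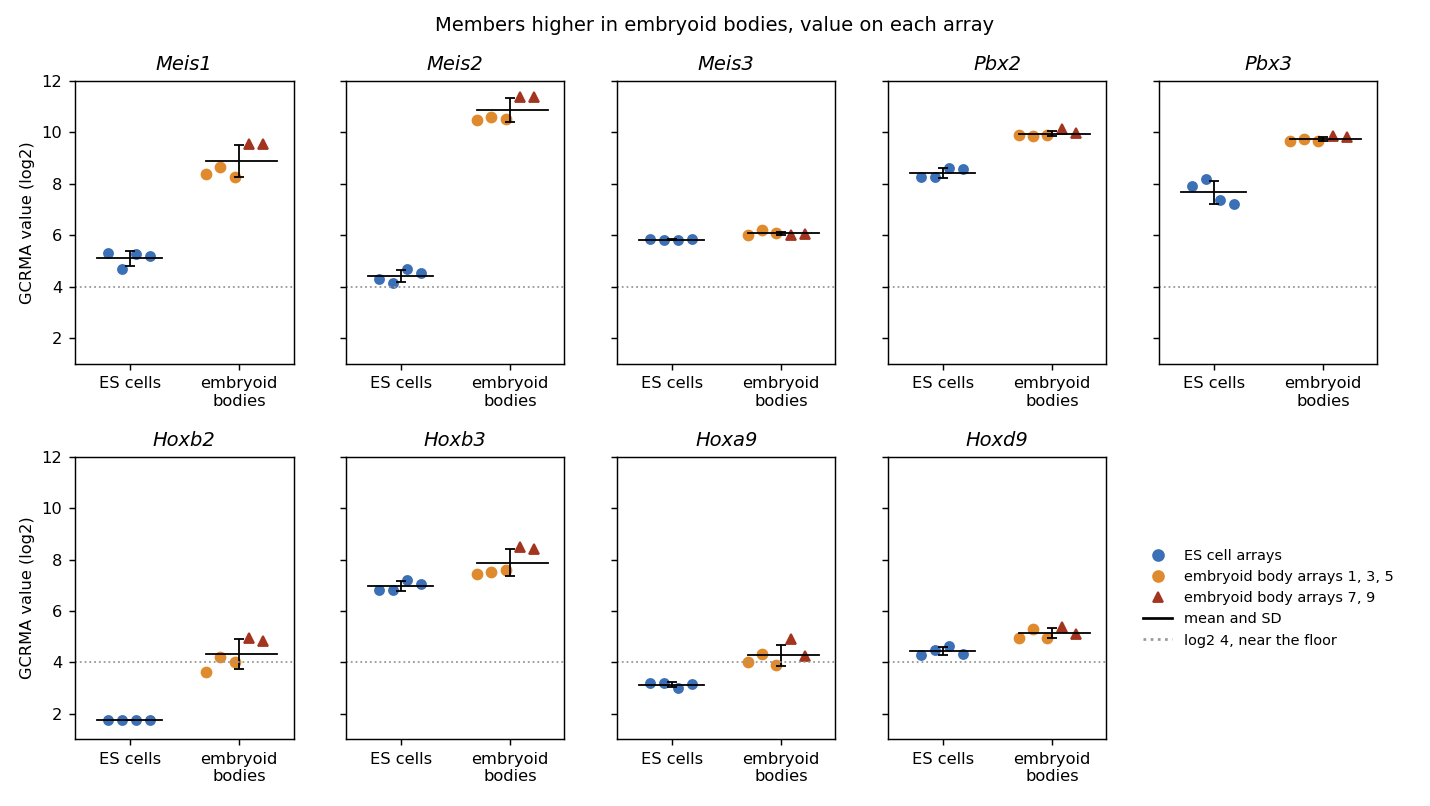
The value of each called gene on each array (y axis, log2 of the GCRMA intensity) for the 4 ESC arrays and the 5 embryoid body arrays, with the group mean as a horizontal bar, the SD as the error bar and a dotted line at log2 4. The ESC and embryoid body points do not overlap in any of the 9 panels, and the distance between them runs from 6.46 in Meis2 down to 0.24 in Meis3.

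The plot of the called genes by array shows the groups apart in every panel, with distances that vary widely. Meis2 had the largest difference of the 40 genes. Meis2 encodes a TALE cofactor that is active in the developing hindbrain, somites, limb base and cranial neural crest. It lies on the mouse assembly GRCm38.p6 at chr2:115861264-116067537. On the ESC arrays it was at 4.30, 4.15, 4.67 and 4.53, and on the embryoid body arrays at 10.47, 10.60, 10.53, 11.38 and 11.38. Every ESC array was just above the floor, and the embryoid body arrays were high throughout, with arrays 7 and 9 the highest. The means were 4.41 ± 0.23 (SD, n = 4) and 10.87 ± 0.47 (SD, n = 5), a difference of 6.46 (SE 0.23, 95% interval 5.93 to 6.98) or 87.8-fold, with a limma adjusted p of 2.4e-07. The other 3 probe sets of Meis2 were also called higher, with differences of 5.58, 2.88 and 1.97. Their limma adjusted p-values were 3.1e-06, 0.00059 and 3.5e-05, so the direction was shared by all 4 and the size was not. The last of them, the only plain probe set of Meis2, gave 3.93-fold.

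Meis1, the founder of the family and a partner of the posterior Hox proteins in blood-forming cells, lies at chr11:18880428-19019651. It read 5.32, 4.67, 5.26 and 5.18 on the ESC arrays and 8.40, 8.66, 8.28, 9.54 and 9.53 on the embryoid body arrays. As for Meis2, the groups were far apart and embryoid body arrays 7 and 9 were above the other 3. The means of 5.11 ± 0.30 and 8.88 ± 0.61 differed by 3.77 (SE 0.30, 95% interval 3.09 to 4.46), which is 13.7-fold, at a limma adjusted p of 1.9e-05. Of the other probe sets of Meis1, 1 was called higher (a difference of 0.92, limma adjusted p = 0.024, with an ESC array level with embryoid body arrays) and 1 was near 3 on every array and was not called (a difference of -0.03). Meis3, at chr7:16174012-16186510, has a role in hindbrain patterning. It was between 5.82 and 5.85 on the 4 ESC arrays and read 6.01, 6.19, 6.08, 6.02 and 6.06 on the embryoid body arrays. The groups did not overlap, but the difference was only 0.24 (SE 0.05, 95% interval 0.13 to 0.35), or 1.18-fold, with a limma adjusted p of 0.0057.

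The promoter sequences of Meis2 and Meis1 are shown because these are the 2 genes of the set with the largest differences and moved together on the same arrays. They are the 250 bases before and 50 bases after an annotated start, from RefSeq for GRCm38.p6. Both lie on the minus strand, at chr2:116064570-116064869 for Meis2 and at chr11:19018920-19019219 for Meis1. Both windows lie inside the span of the gene given above, so these starts are not the outermost of the gene. Capitals mark every CG, the pair of bases at which mouse DNA is methylated.
Meis2: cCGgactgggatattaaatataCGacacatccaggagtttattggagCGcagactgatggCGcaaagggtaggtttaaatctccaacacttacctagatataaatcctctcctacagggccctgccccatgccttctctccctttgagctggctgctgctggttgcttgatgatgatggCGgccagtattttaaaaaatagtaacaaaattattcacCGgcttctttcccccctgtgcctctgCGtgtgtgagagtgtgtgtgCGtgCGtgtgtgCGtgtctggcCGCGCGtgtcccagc
Meis1: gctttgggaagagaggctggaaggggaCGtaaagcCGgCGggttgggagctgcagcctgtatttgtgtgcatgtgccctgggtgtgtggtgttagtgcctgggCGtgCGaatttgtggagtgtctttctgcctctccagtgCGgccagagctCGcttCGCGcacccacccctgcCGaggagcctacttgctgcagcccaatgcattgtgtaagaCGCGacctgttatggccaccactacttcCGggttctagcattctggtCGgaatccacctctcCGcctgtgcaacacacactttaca
The Meis2 window held 13 CG and the Meis1 window 15. The median was 7 over all 32841 RefSeq windows of this length, and 17 over the 26 windows of the 24 genes of the set that had one.

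The Pbx genes encode the partners that bind next to Hox proteins and carry them to their sites. Pbx3, at chr2:34171457-34372045, is a cofactor in hindbrain, limb and nervous system. It was at 7.91, 8.18, 7.39 and 7.22 on the ESC arrays and at 9.68, 9.74, 9.67, 9.85 and 9.84 on the embryoid body arrays. The embryoid body arrays lay close together, while the ESC arrays spread more, with arrays 8 and 10 the lowest. Pbx3 differed by 2.08 (SE 0.18, 95% interval 1.67 to 2.49), or 4.22-fold, at a limma adjusted p of 3.2e-05, and its other probe set by 2.41 (limma adjusted p = 9e-07). Pbx2, a broadly expressed family member at chr17:34592259-34597400, read 8.26, 8.25, 8.61 and 8.58 on the ESC arrays and 9.91, 9.85, 9.89, 10.13 and 9.99 on the embryoid body arrays. All embryoid body arrays were above all ESC arrays by more than the range of either group. The difference was 1.53 (SE 0.10, 95% interval 1.31 to 1.75), or 2.89-fold, at a limma adjusted p of 5e-06, and the other 2 probe sets were called higher by 0.81 and 0.32.

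The other 2 cofactors did not pass the test. Pbx4, which is known chiefly from testis, stayed within 6.12 to 6.19 on all 9 arrays, and its difference was -0.02 (95% interval -0.11 to 0.06, limma adjusted p = 0.63). Pknox1, also called Prep1, forms dimers with Pbx proteins much as Meis proteins do. It was at 7.22, 7.31, 7.22 and 7.05 on the ESC arrays and 7.10, 7.29, 6.40, 7.22 and 7.28 on the embryoid body arrays, so the groups overlapped and only embryoid body array 5 stood apart. The difference of Pknox1 was -0.14 with a 95% interval from -0.55 to 0.26 (limma adjusted p = 0.51). Among further symbols of these families outside the 40, Pbxip1, whose product binds Pbx proteins and blocks their binding to DNA, was higher by 1.49 (SE 0.12, limma adjusted p = 2.2e-05). Pknox2, the paralogue of Pknox1, was higher by 0.79 (SE 0.17, limma adjusted p = 0.0079). A second probe set of Pknox2 was near the floor and was not called (a difference of -0.04, limma adjusted p = 0.084). The other 3 of the 5 further symbols did not pass the test.

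**Figure D2:**
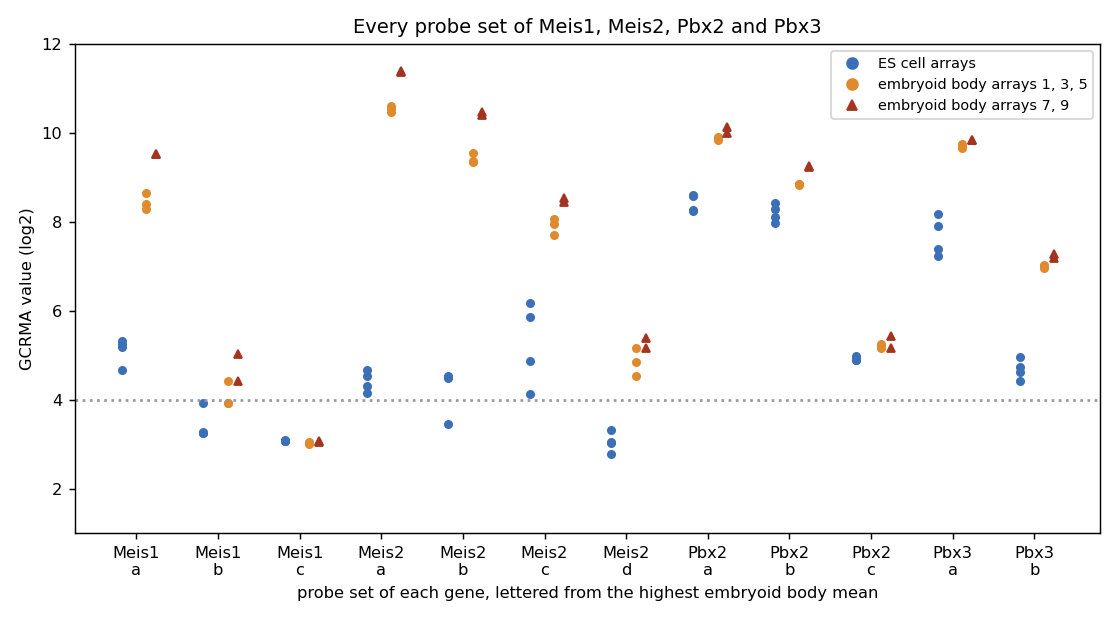
Every probe set of Meis1, Meis2, Pbx2 and Pbx3 (x axis, lettered within a gene from the highest embryoid body mean), with the log2 GCRMA intensity on each ESC and embryoid body array (y axis) and a dotted line at log2 4. Of the 12 probe sets, 11 were called higher in embryoid bodies, and the third of Meis1 lay near 3 on every array.

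The plot of all probe sets of the Meis and Pbx genes shows how far the size of a difference depended on the probes read. In Meis2 it ran from 1.97 to 6.46, with the lowest values in the probe set that was near the floor on all ESC arrays. The fold changes above therefore hold for the probe sets named and not for all transcripts of a gene.

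Hoxb2 and Hoxb3 were the only anterior Hox genes called, where anterior means paralogues 1 to 3. Hoxb2, which takes part in the identity of the fourth hindbrain segment, lies at chr11:96351632-96354020. Its probe set was at 1.76, 1.76, 1.75 and 1.77 on the ESC arrays and at 3.61, 4.20, 4.01, 4.95 and 4.85 on the embryoid body arrays. All ESC arrays and embryoid body array 1 were under the floor, and the other 4 embryoid body arrays rose just above it. The difference was 2.56 (SE 0.26, 95% interval 1.99 to 3.14), or 5.92-fold, at a limma adjusted p of 7.6e-05. As the ESC values are near the floor, this fold describes the GCRMA scale and not a ratio of RNA amounts.

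Hoxb3, a neighbour of Hoxb2 with a role in the hindbrain and pharyngeal arches, lies at chr11:96307101-96347930. It was at 6.81, 6.83, 7.18 and 7.04 on the ESC arrays and at 7.42, 7.51, 7.58, 8.49 and 8.41 on the embryoid body arrays. The lowest embryoid body array was close above the highest ESC array, and arrays 7 and 9 stood clear of the rest. The difference was 0.91 (SE 0.25, 95% interval 0.35 to 1.47), or 1.88-fold, at a limma adjusted p of 0.027. The call of Hoxb3 was lost after quantile normalization (adjusted p = 0.055) and without ESC array 2 (0.071), 6 (0.071) or 10 (0.056). Its other probe set was near the floor and was not called (a difference of 0.21, limma adjusted p = 0.14), and the annotated record of Hoxb3 overlaps that of Hoxb4, whose own probe sets did not pass the test.

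Hoxa9 and Hoxd9 were the only posterior Hox genes called, where posterior means paralogues 9 to 13, and both belong to paralogue group 9. Hoxa9, a regulator of trunk patterning and of blood stem cells, lies at chr6:52223097-52227370. It read 3.19, 3.21, 2.98 and 3.15 on the ESC arrays and 3.996, 4.32, 3.89, 4.90 and 4.24 on the embryoid body arrays. All ESC arrays were near the floor, and the embryoid body arrays straddled it. The difference was 1.14 (SE 0.18, 95% interval 0.72 to 1.55), or 2.20-fold, at a limma adjusted p of 0.0015, while its second probe set was between 2.29 and 2.34 on all arrays and was not called. Hoxd9, which acts with its paralogues in limb and lumbosacral patterning, lies at chr2:74697763-74700208. It read 4.29, 4.48, 4.63 and 4.32 on the ESC arrays and 4.96, 5.29, 4.96, 5.38 and 5.09 on the embryoid body arrays. Here all 9 arrays were above the floor and the groups were separate. Hoxd9 differed by 0.71 (SE 0.11, 95% interval 0.46 to 0.96), or 1.63-fold, at a limma adjusted p of 0.0012.

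The promoter windows of these paralogues, at chr6:52227321-52227620 on the minus strand for Hoxa9 and at chr2:74697513-74697812 on the plus strand for Hoxd9, are shown because the genes were called together and their windows lie far apart in base composition. Capitals again mark every CG.
Hoxa9: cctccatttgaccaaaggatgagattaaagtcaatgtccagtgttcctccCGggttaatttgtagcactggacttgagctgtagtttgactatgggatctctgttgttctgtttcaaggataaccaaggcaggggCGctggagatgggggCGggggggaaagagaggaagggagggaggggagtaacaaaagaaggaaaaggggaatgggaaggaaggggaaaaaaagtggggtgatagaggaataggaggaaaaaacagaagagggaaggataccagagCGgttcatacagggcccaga
Hoxd9: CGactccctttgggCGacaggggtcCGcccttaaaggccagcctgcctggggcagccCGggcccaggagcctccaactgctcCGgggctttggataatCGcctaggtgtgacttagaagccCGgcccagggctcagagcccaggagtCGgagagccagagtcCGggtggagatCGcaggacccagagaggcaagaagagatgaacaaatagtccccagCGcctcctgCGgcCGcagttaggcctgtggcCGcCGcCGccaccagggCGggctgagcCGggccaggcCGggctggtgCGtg
The Hoxa9 window held 4 CG, the lowest number in the set together with a window of Hoxd11, and the Hoxd9 window held 20.

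The remaining 29 Hox genes did not pass the test. For 15 of them (Hoxa7, Hoxa13, Hoxb1, Hoxb4, Hoxb5, Hoxb6, Hoxb13, Hoxc5, Hoxc8, Hoxc9, Hoxc13, Hoxd1, Hoxd10, Hoxd11 and Hoxd12) the value was under 4 on every array. Their differences ran from -0.21 to 0.01 with a median of -0.02, where the median over all genes was -0.04. Among these are Hoxb1, the earliest of the HoxB genes to be switched on in the embryo, which stayed within 2.18 to 2.25, and Hoxa13 of the distal limb and hindgut, within 2.22 to 2.28. Values this near the floor do not show that the groups were alike.

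The other 14 uncalled Hox genes reached 4 on at least 1 array, and their differences ran from -0.24 (Hoxc6) to 0.46 (Hoxa10) with a median of 0.12. Hoxa10, of the lumbar region and the uterus, was closest to a call, at 3.26, 4.08, 3.82 and 4.08 on the ESC arrays and 4.44, 4.08, 4.31, 4.44 and 4.08 on the embryoid body arrays. The groups shared the value 4.08, and the difference of 0.46 (SE 0.17, 95% interval 0.07 to 0.85) had a limma adjusted p of 0.081. Hoxa3, of the pharyngeal arches and thymus, was above 8 on all 9 arrays but differed by 0.04 (95% interval -0.20 to 0.28, limma adjusted p = 0.74). Its other 3 probe sets were between 2.44 and 4.497, and its annotated record overlaps those of Hoxa4 and Hoxa5. Hoxb7, Hoxb9, Hoxc4, Hoxc10, Hoxd3 and Hoxd13 were between 4.60 and 6.12 on all arrays with differences from -0.07 to 0.14, none of which passed the test. Hoxa11 was between 4.68 and 5.31 (a difference of 0.19, limma adjusted p = 0.23) and Hoxc6 between 3.64 and 4.38 (a difference of -0.24, limma adjusted p = 0.15), with overlapping groups in both.

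Some of the uncalled genes had a probe set that passed 4 only on some embryoid body arrays, and not by much. Hoxa2, the selector gene of the second pharyngeal arch, was at 3.58, 3.45, 3.56 and 3.63 on the ESC arrays and at 3.13, 3.61, 3.54, 4.89 and 4.32 on the embryoid body arrays. Only embryoid body arrays 7 and 9 were above the ESC range, and the difference over all arrays was 0.34 (95% interval -0.37 to 1.06, limma adjusted p = 0.38). Hoxa4 was between 3.16 and 3.32 on 8 arrays and at 4.65 on embryoid body array 9. Hoxa5, a regulator of lung and cervical patterning, was not called by the probe set used (a difference of 0.15, limma adjusted p = 0.40). Its second probe set was at 2.80, 2.81, 2.95 and 3.08 on the ESC arrays and at 2.91, 3.07, 3.17, 4.11 and 4.13 on the embryoid body arrays. It was just above 4 on the same arrays 7 and 9 and was also not called (a difference of 0.57, limma adjusted p = 0.12).

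The probe sets of Hoxd8 disagreed. The probe set used, with the higher mean, differed by 0.12 and was not called (limma adjusted p = 0.47). The other read 4.56, 3.23, 4.24 and 4.67 on the ESC arrays and 5.003, 5.12, 5.13, 5.13 and 5.15 on the embryoid body arrays, with no overlap and a difference of 0.93 (SE 0.26, limma adjusted p = 0.030). Over all 66 probe sets of the 40 genes, 17 were called higher and 0 lower by limma, against 10.5% and 10.6% of the 45037 probe sets, and 29 were under 4 on every array. Probe sets shared between Hoxb8 and Hoxb7 and between Hoxd4 and Hoxd3, which could name neither gene of a pair, did not pass the test.

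**Figure D3:**
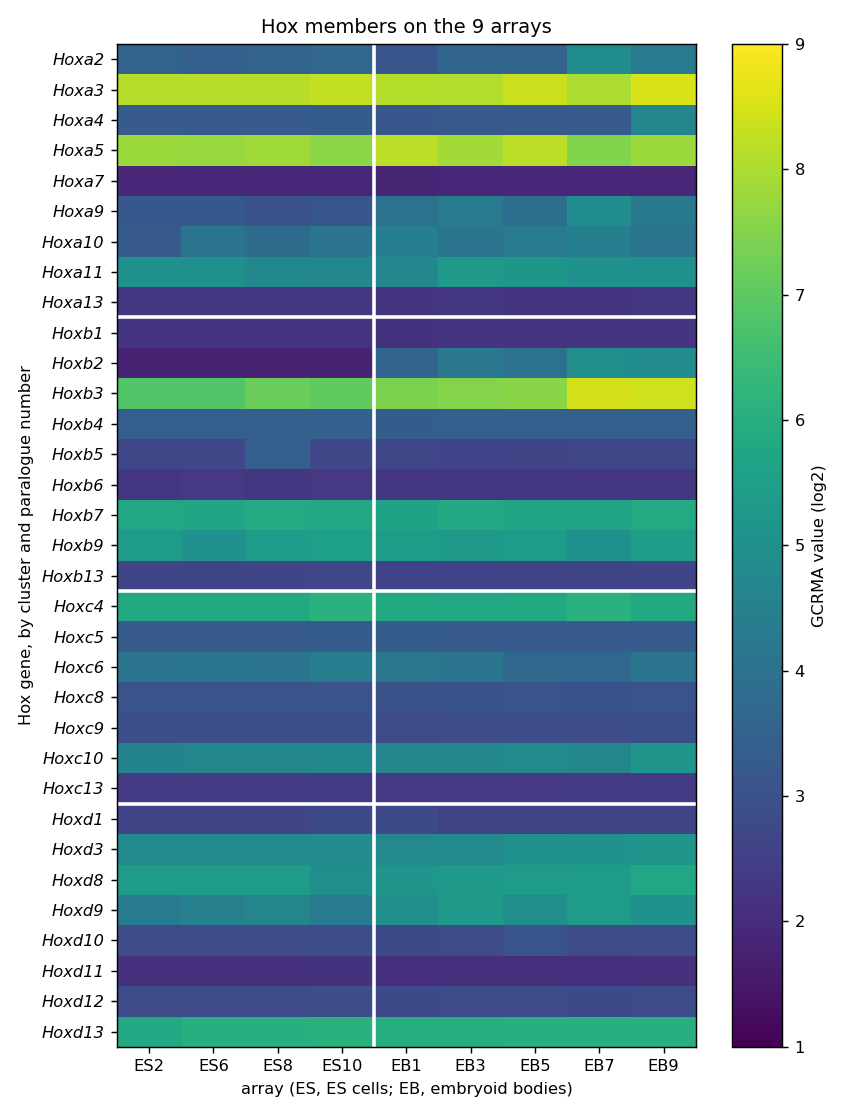
Log2 GCRMA intensity (colour) of the 33 Hox genes (rows, by cluster and then by paralogue number from 3′ to 5′) on the 4 ESC and 5 embryoid body arrays (columns), with white lines between clusters and between the groups. Most rows keep their colour across the white line, and Hoxb2, Hoxb3, Hoxa9 and Hoxd9 turn brighter to its right.

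The heat map of the Hox genes shows no cluster that turned on as a whole. HoxA had 1 of its 9 measured genes called higher (median difference 0.19), HoxB 2 of 9 (-0.02), HoxC 0 of 7 (-0.02) and HoxD 1 of 8 (0.01), and no cluster had a gene called lower by limma. By unadjusted p under 0.05, HoxC still had 0 genes in either direction. The clusters span chr6:52162417-52260880, chr11:96194316-96368254, chr15:102921131-103036856 and chr2:74668225-74765142. The HoxC genes differed by -0.24 to 0.12, and 4 of the 7 were under 4 on every array.

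The calls did not follow the order of position within the clusters, though many genes were too near the floor to show whether there was an order. Of the 7 anterior genes 2 were called higher (median difference 0.14), of the 12 central genes, paralogues 4 to 8, 0 by limma (-0.02, and 0 by unadjusted p under 0.05 in either direction), and of the 14 posterior genes 2 (-0.00). Over the 33 Hox genes the difference and the paralogue number had a Pearson r of -0.23 and a Spearman rho of -0.26, given as a description, since the genes share arrays and neighbours and many are near the floor.

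**Figure D4:**
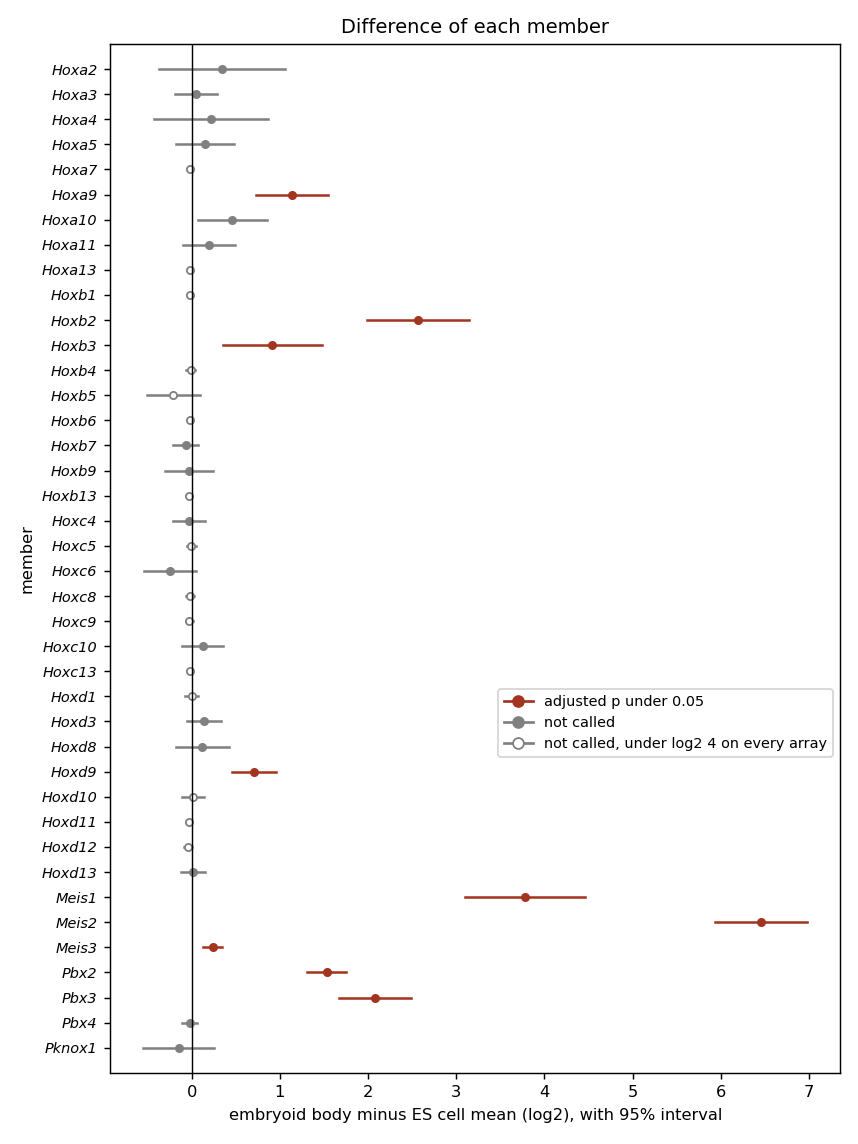
Embryoid body minus ESC mean (x axis, log2) of each of the 40 genes (y axis, Hox genes by cluster and paralogue number and then the cofactors), with 95% intervals from limma. Open circles are genes under log2 4 on every array. The 9 called genes lie to the right of 0, from 0.24 (Meis3) to 6.46 (Meis2), and the uncalled genes lie between -0.24 and 0.46.

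The plot of the 40 differences sets the Meis and Pbx genes beside the Hox genes. The largest Hox difference, 2.56 in Hoxb2, is smaller than those of Meis1 and Meis2 by the probe sets used. This order depends on the probes, as plain probe sets gave Meis2 1.97 and Meis1 0.92, below the plain probe set of Hoxb2. The differences are on the scale of each probe set and are not amounts of RNA.

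The embryoid body arrays were not alike for these genes. In 15 of the 40 genes both arrays 7 and 9 were above all of arrays 1, 3 and 5 (37.5%, against 17.2% of all genes), and in 1 gene both were below (2.5%, against 9.81%). Among the 15 were 4 of the 7 cofactors, Meis1, Meis2, Pbx2 and Pbx3, and 11 Hox genes, several of which differed by only a few hundredths near the floor. The gap between the means of the 2 sets of arrays was widest in Hoxa2, from 3.43 to 4.60, followed by Meis1, from 8.45 to 9.54, Hoxb2, from 3.94 to 4.90, and Hoxb3, from 7.50 to 8.45. What set arrays 7 and 9 apart was not given by the labels.

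The array labels run from 1 to 10 across both groups, so the comparison was also made within the arrays labelled up to 6 and within those labelled 7 or more. Meis2 was higher by 6.30 within the first and 6.78 within the second, Meis1 by 3.45 and 4.32, Pbx3 by 1.65 and 2.53, and Pbx2 by 1.63 and 1.47. Hoxb2 was higher by 2.18 and 3.14, Hoxb3 by 0.68 and 1.33, Hoxa9 by 0.87 and 1.51, and Hoxd9 by 0.69 and 0.77. For these 8 genes the limma adjusted p was under 0.05 in both sets. Meis3 was higher by 0.26 and 0.20 and did not pass in either (limma adjusted p = 0.086 and 0.19). Within the later arrays alone, ESC arrays 8 and 10 and embryoid body arrays 7 and 9, 2 more Hox genes passed. These were Hoxa2 with a difference of 1.01 (limma adjusted p = 0.039) and Hoxa11 with 0.31 (0.040). Within the arrays up to label 6 their differences were -0.089 and 0.065, and neither passed. Embryoid body arrays 7 and 9 were already seen to be the highest for Hoxa2, so its pass among them is no separate result.

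Hoxa2 is also the gene of the set whose promoter window holds both motifs that were searched for, and it is printed for that reason. These were TGACAG, the core that Meis and Pknox proteins recognise, and TGATNNAT, the joint site of Pbx and Hox proteins, on either strand. The window lies at chr6:52164782-52165081 on the minus strand, and capitals mark the matches, which do not overlap.
Hoxa2: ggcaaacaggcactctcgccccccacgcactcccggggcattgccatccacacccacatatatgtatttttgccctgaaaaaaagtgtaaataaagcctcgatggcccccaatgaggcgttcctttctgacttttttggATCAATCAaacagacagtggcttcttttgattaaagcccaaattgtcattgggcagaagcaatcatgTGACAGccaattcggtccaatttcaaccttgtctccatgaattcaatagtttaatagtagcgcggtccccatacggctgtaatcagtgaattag
TGACAG was found in 19.2% of all 32841 RefSeq windows and TGATNNAT in 8.85%. Of the 24 genes with a window, 2 held the first (Hoxa2 and Hoxa3) and 3 the second (Hoxa2, Hoxb1 and Hoxd11). Of the 9 called genes, 6 had a window (Hoxa9, Hoxd9, Meis1, Meis2, Meis3 and Pbx2), and none of these 6 windows held either motif, while Hoxb2, Hoxb3 and Pbx3 were not searched. A match is a run of letters and not a site shown to be bound.

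Genes that act before Hox genes moved in part. Of 16 measured regulators of Hox expression, 5 were higher and 1 was lower (median difference 0.04). Cyp26a1, the enzyme that breaks down retinoic acid, was higher by 4.43 (SE 0.32, limma adjusted p = 1e-05). The retinoic acid carriers Crabp2 and Crabp1 were higher by 2.88 and 2.41, and the receptor Rarb, itself a retinoic acid target, by 2.48. Fgf8 was also called (a difference of 0.80, limma adjusted p = 0.034). The receptor Rarg was lower by 1.15 (a difference of -1.15, limma adjusted p = 0.0053). The caudal genes Cdx1, Cdx2 and Cdx4, direct activators of central Hox genes, did not pass, with differences of -0.09, 0.17 and -0.06, nor did Wnt3, Wnt3a, Wnt8a, Gdf11 and the retinoic acid synthesis enzyme Aldh1a2.

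**Figure D5:**
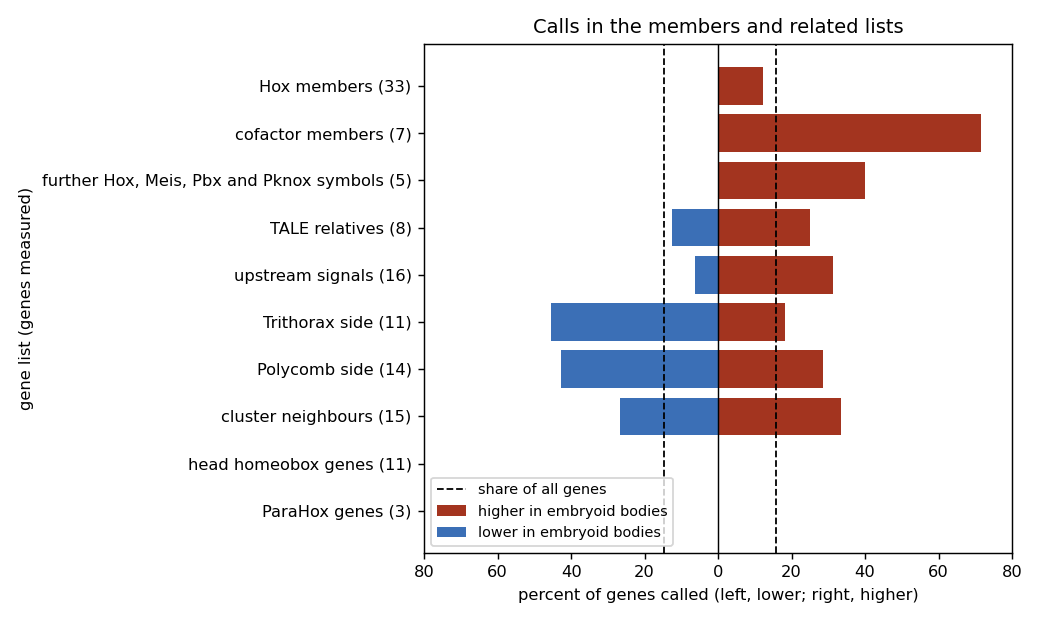
Percentage of measured genes called higher (bars to the right) and lower (bars to the left) in embryoid bodies for the Hox genes, the cofactors and the related lists (number of genes measured in parentheses), with dashed lines at the shares over all genes, 15.7% higher and 14.7% lower. The bar of the cofactors reaches 5 of 7 genes, and the head homeobox and ParaHox lists have no bar in either direction.

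Among other TALE genes, outside the Hox partners, 2 of 8 were higher and 1 was lower. Irx3 and Irx5, which lie in the same Iroquois cluster, were higher by 4.63 (SE 0.25, limma adjusted p = 2.2e-06) and 2.58 (SE 0.53, limma adjusted p = 0.0067). Tgif1, a repressor that competes with Meis proteins for similar sites, had a difference of -1.02 (SE 0.06, limma adjusted p = 4.9e-06). Homeobox genes of the head, in front of the Hox domain, gave 0 calls among 11 by limma in either direction, with 0 higher and 3 lower by unadjusted p under 0.05. The ParaHox genes Gsx1, Gsx2 and Pdx1, relatives of the Hox clusters, gave 0 calls among 3 (0 higher and 2 lower by unadjusted p). The plot of calls by list shows these beside the Hox genes and their cofactors.

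The chromatin regulators of the clusters moved in both directions. On the Polycomb side, which keeps Hox genes silent, 4 of 14 genes were higher and 6 lower. Bmi1 and Phc2 were higher by 2.27 and 2.04, while Cbx7 and Phc1 had differences of -2.44 and -1.86. On the Trithorax side, which keeps them active, 2 of 11 were higher and 5 lower, with Kdm6b, a demethylase of the Polycomb mark, at 1.58 and Ash2l at -1.22. Of 15 genes next to the 4 clusters, 5 were higher and 4 lower, the largest of either sign being Evx1 beside HoxA at 0.88 (limma adjusted p = 0.049) and Snx10, also beside HoxA, at -1.30 (limma adjusted p = 1.2e-05).

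Markers of other cell types moved with the comparison. Of 14 mesenchyme and fibroblast markers 12 were higher, among them Postn by 7.99 and Col3a1 by 7.85, and their summed intensity went from 692 to 1433 on the ESC arrays to 12591 to 13293 on the embryoid body arrays. The fibroblast surface marker Thy1 was under 4 on every array. Trunk mesoderm markers gave 4 of 13 higher and 1 lower (summed intensity 503 to 901 on ESC arrays, 1349 to 1677 on embryoid body arrays), led by Hand2 with 6.12, while Tbx6, Meox1, Mesp1 and Tbx5 were under 4 on every array. Endoderm markers gave 5 of 10 higher (351 to 422 against 1454 to 1594), blood and endothelial markers 5 of 10 higher (316 to 365 against 2138 to 8295), and neural markers 3 of 14 higher and 2 lower (1567 to 1849 against 3066 to 4295). Under 4 on every array were also Apoa1, Amn and Cubn among the endoderm markers, Pecam1 among the endothelial markers and Neurog1, Neurog2, Map2 and Olig2 among the neural markers. The part of these cell types in the differences of the Meis, Pbx and Hox genes was not tested.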

How the data were processed

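Total RNA of E14 ESCs (4 samples) and embryoid bodies (5 samples) was hybridised to 1-colour Affymetrix arrays. The authors computed GCRMA values, which correct each probe for background by a model of its sequence, normalize the arrays to 1 distribution and summarise the probes of a probe set. The deposited values are intensities on a linear scale. Whether all 9 arrays were normalized together was not given in the sources used here, and per-probe detection calls were not used here. The number of arrays limits the precision.

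The log2 of each intensity was taken without further normalization. After 64 control probe sets were left out, 45037 remained, of which 34945 were paired by the array's annotation with 1 gene symbol, 932 with several and 9160 with none. Of the probe sets paired with a gene alone, the brightest on average stood for it. The groups were compared with limma 3.58.1 in R 4.3.3 by a two-sided moderated test (lmFit, then eBayes with the trend and robust options) that covered every remaining probe set. P-values were adjusted by the method of Benjamini and Hochberg, and the threshold was an adjusted p under 0.05. The script was tested on simulated data with known differences. Errors of a mean are SDs, and SEs and 95% intervals of a difference are limma's. Log2 4 marked values near the floor.

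Samples were grouped by their titles. The genes, lists, tests and alternatives were chosen with earlier results of these data known. Every gene of the set was described, with all values for those called, and of each related list the called genes with the largest differences were named. Those named outside this rule (Cdx1, Cdx2, Cdx4, Wnt3, Wnt3a, Wnt8a, Gdf11, Aldh1a2, Gsx1, Gsx2, Pdx1, Esrrb, Thy1, Tbx6, Meox1, Mesp1, Tbx5, Apoa1, Amn, Cubn, Pecam1, Neurog1, Neurog2, Map2, Olig2 and Fgf8) were chosen after their values were seen. Coordinates and promoter windows are those of RefSeq for GRCm38.p6. The alternatives were other normalizations, probe set rules, filters and offsets, array weights, an array number term, the arrays up to label 6 or from 7 alone, and leaving out each array.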

Additional observations from a re-analysis of the deposited data

Results flagged for a closer look

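A sample far from the others of its group was found in 9 of 50 groups of values checked, for the genes above log2 4 on some array, where the gap to the nearest other sample took up most of the range of the group. For independent values without ties, chance alone would give this in about 1 in 20 groups. Here some values were tied within a group and the genes share arrays, so that share is no yardstick for the count. Among ESC arrays, array 10 stood apart in Hoxa3 (8.26, where the other 3 arrays held 8.15), Hoxc4 (6.10), Hoxc6 (4.38) and Hoxd8 (4.97), and array 6 in Hoxd3 (4.79). Among embryoid body arrays, array 9 stood apart in Hoxa4 (4.65) and Hoxc10 (5.18), array 7 in Hoxc4 (6.11) and array 5 in Pknox1 (6.40). None of these genes was called.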

How the results depend on the processing

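The 9 genes called higher numbered 8 to 11 under the alternatives other than a size condition, which left 6 of them. Without 1 array they numbered 8 to 9, with 3 to 4 Hox genes and 4960 to 7780 genes over the whole array. Requiring a difference of at least 1 left 2 Hox genes and 1730 genes in all. With array weights 8281 genes were called in all. The filter on low values removed Hoxa9 from the genes tested. Plain probe sets gave Meis2 a difference of 1.97 and Meis1 0.92, and added Hoxd8 (0.93). They left out Meis3, Pbx3 and the uncalled Hoxb6, which have no such probe set. Averaging the probe sets of a gene added Hoxa5 (0.36) and Hoxd8 (0.53). The count of genes called lower, 0, became 1 after quantile normalization (Pbx4, -0.13, adjusted p = 0.019) and 1 with array weights (Hoxd11, -0.02, adjusted p = 0.046), and ran from 0 to 2 without 1 array, reaching 2 without embryoid body array 9 (Hoxb13 and Hoxd11, both under 4 on every array). None of the 9 called genes changed sign. In 10 uncalled genes 21 values did, with a lowest adjusted p of 0.14. They were -0.016 for Hoxa3 and -0.085 for Hoxd13 after quantile normalization, 0.021 for Hoxb9 and 0.0068 for Hoxc4 with array weights, -0.054 for Hoxa10 with plain probe sets and -0.0078 for Hoxd13 with averaged probe sets. Within arrays up to label 6 they were -0.089 for Hoxa2, -0.073 for Hoxa4, 0.15 for Hoxb9 and -0.11 for Hoxd8, and within later arrays -0.11 for Hoxa5, 0.011 for Hoxc4, -0.044 for Hoxd13 and 0.11 for Pknox1. Without 1 array, Hoxa3 ran from -0.034 to 0.093 and Hoxa4 from -0.062 to 0.31, both lowest without embryoid body array 9. Hoxb9 ran from -0.13 to 0.048 (above 0 without ESC array 10, at 0.025, or embryoid body array 7), Hoxc4 from -0.083 to 0.029 (highest without ESC array 10), Hoxd13 from -0.047 (without ESC array 2) to 0.055, and Pknox1 from -0.20 to 0.019 (highest without embryoid body array 5). The causes were not tested. No paired analysis was made, since the groups share no array number and the labels do not say which arrays belong together.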
